A study of Mus musculus and Ictidomys tridecemlineatus with 36 samples.

Results

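Neurod1 peaks of the developing retina of the 13-lined ground squirrel (13LGS), a diurnal rodent with a cone-dominant retina, were examined here. The peaks come from CUT&RUN, in which an antibody directs a nuclease to a protein or histone mark in nuclei and the released DNA fragments are sequenced. All 4658 peaks called for Neurod1 over IgG in P5 13LGS retina were taken, without any filter, out of 532904 peaks in the 10 lists of the series. The Neurod1 list combines 4 libraries made with a NeuroD1 antibody, from 2 biological replicates with 2 technical replicates each, and its control combines 3 libraries made with IgG, an antibody without a specific target. Each 13LGS replicate pooled retinas of 2 individuals. The other 13LGS lists used here are Otx2, from 6 libraries made with 2 antibodies, and H3K4me3, H3K27ac and H3K4me1, from 1 library each. The Neurod1 list of P2 mouse retina, from 4 libraries with 3 individuals pooled per replicate, served for comparison together with the mouse histone lists, from 2 libraries each. The labels give the tissue and the postnatal day, with no strain, genotype or treatment, and whole retina mixes all retinal cell types. Peak lists hold no RNA, so the labelled tissue could not be checked against marker genes.

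Neurod1 is a basic helix-loop-helix transcription factor that binds E-box sequences together with a more broadly expressed partner of the same family. In the retina it is known for its part in the differentiation of photoreceptors and in the formation of amacrine cells. Otx2 is a homeodomain factor required for photoreceptor and bipolar cell fate. Of the histone marks, H3K4me3 marks promoters, H3K27ac marks active promoters and enhancers, and H3K4me1 marks enhancers whether they are active or not. The study sorted accessible elements into classes by these marks and also asked for a minimum signal of the mark, which was not applied here. With the same order of marks applied to Neurod1 peaks by overlap alone, a peak that overlapped H3K4me3 was called a promoter peak, one with H3K27ac but no H3K4me3 an active enhancer peak, and one with H3K4me1 alone a poised enhancer peak. A peak with none of the 3 marks was called unmarked. Overlap meant at least 1 bp, and positions are on the HiC_Itri_2 assembly, whose sequences are named Itri followed by a number.

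Most Neurod1 peaks were weak and narrow, and a small set was much stronger. The fold enrichment over IgG, a ratio at the summit of the peak, had a median of 3.51, with a middle range from 2.95 at the lower quartile to 4.49 at the upper one. The lowest fold was 1.22 and the highest was 37.1, and 107 peaks (2.30%) reached 10-fold. Width had a median of 308 bp and ranged from 174 to 2913 bp, and all peaks together covered 1.83 Mb. The −log10 q-value of the peaks had a median of 5.18. The 13LGS Otx2 list was longer, with 27993 peaks, and its peaks had a lower median fold of 3.15 but a wider median width of 426 bp. The 4744 mouse Neurod1 peaks had a median fold of 3.78 and a median width of 418 bp. These lists were made from different numbers of libraries, so their folds and widths are given side by side only.

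The number of fragments behind each peak could be recovered. The deposited fold and p-value of a peak together fix the fragments at its summit and the IgG background used for it. For 4652 of the 4658 Neurod1 peaks (99.9%) the solved number of fragments was whole to within 0.01. In the mouse Neurod1 list this held for 1.58% of peaks, so fragments are given for the 13LGS Neurod1 list alone. The median peak rested on 29 fragments at its summit over all 4 libraries, the quartiles were 23 and 41, and the lowest was 15. The IgG background had a median of 7.13 scaled fragments and was at its lowest value, 4.38, at 209 peaks. It is the value that the fragments were set against in peak calling. Since many peaks share the lowest value, it need not be the IgG signal at the summit itself. Much of the list therefore rests on few fragments per peak, and the value of a single weak peak carries a wide counting error. Across the 4658 peaks, fold went with width at a Spearman rho of 0.511 and with fragments at 0.445, the latter sharing a term with the fold. These correlations describe peaks of a single list, which are not replicates.

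**Figure D1:**
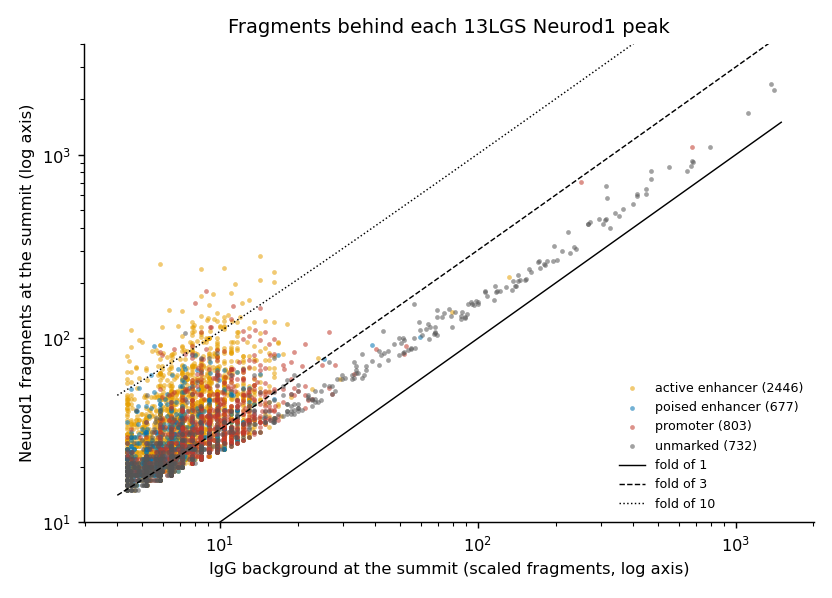
Neurod1 fragments at the summit of each of the 4658 13LGS peaks (vertical, log axis) against the IgG background used for the peak (horizontal, log axis), coloured by histone class, with lines of equal fold at 1, 3 and 10. Most peaks lie at an IgG background near the median of 7.13, and a tail of 114 peaks with a background above 50, of which 107 were unmarked, runs close to the line of a fold of 1.

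A group of 114 peaks (2.45%) stood apart in having an IgG background above 50, a limit chosen after the values were seen. Their background reached 1407 scaled fragments, their median fold was 1.55 and their highest fold was 2.84. Of these peaks 107 overlapped no histone mark, 54 overlapped an Otx2 peak, 46 lay on small scaffolds and 16 on Itri12. The plot of fragments against background shows them as a tail along the line of equal signal. They make up 109 of the 145 peaks under 2-fold in the list. Regions of high signal in every library were removed for mouse with a published blacklist, and the methods describe no such step for 13LGS. Whether this accounts for the 114 peaks was not tested. Some of the class, quintile, decile and spacing results below are also given without them.

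By histone class, active enhancer peaks were the largest group of Neurod1 peaks in the 13LGS retina when an overlap of 1 bp was counted. Of the 4658 peaks, 2446 (52.5%) were active enhancer peaks, 803 (17.2%) promoter peaks and 677 (14.5%) poised enhancer peaks, and 732 (15.7%) were unmarked. These shares depend on the overlap required. With at least 250 bp, which 36.7% of the peaks were too narrow to reach, the unmarked class became the largest, at 43.7%, with active enhancer peaks at 36.1% and promoter peaks at 8.89%. With the summit inside the peak of the mark, active enhancer peaks were 49.5% and unmarked peaks 17.3%. H3K27ac together with H3K4me1, without H3K4me3, was the most frequent combination, at 2380 peaks, whereas only 66 peaks had H3K27ac alone. Active enhancer peaks also had the highest median fold, 3.88, and the greatest median width, 389.5 bp. Poised enhancer peaks followed with a median fold of 3.47 and promoter peaks with 3.35. By fragments at the summit the order differed, with medians of 31 at promoter, 31 at active enhancer and 26 at poised enhancer peaks. The median IgG background was 8.42, 7.13 and 6.55 in the same order. Unmarked peaks were the weakest and narrowest, with a median fold of 2.95 and a median width of 226 bp, or 3.07 and 220 bp without those of high IgG background. The quartile ranges of these folds overlapped between all 4 classes, from 3.19 to 5.05 at active enhancers and from 2.36 to 3.35 at unmarked peaks.

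Otx2 was present at most Neurod1 peaks of the promoter class, 90.8%, and at 69.2% of active enhancer peaks, 52.7% of poised enhancer peaks and 17.9% of unmarked peaks. Neurod1 peaks that overlapped Otx2 had the higher median fold in the 3 marked classes. At active enhancers the median was 4.19 over 1692 peaks with Otx2 and 3.42 over 754 peaks without it. At poised enhancers it was 3.67 with Otx2 and 3.29 without, and at promoters 3.41 and 3.05. The peaks with Otx2 were also wider in these classes. Their median widths were 444 bp against 298 bp without Otx2 at active enhancers, 291 against 240.5 bp at poised enhancers and 283 against 252.5 bp at promoters. The part of width was not tested. Among unmarked peaks the medians were 2.68 over 131 peaks with Otx2 and 2.97 over 601 without it, but this order turned when peaks with an IgG background above 50 were left out. The medians were then 3.23 over 84 peaks with Otx2 and 3.07 over 541 without it.

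To ask how the chromatin marks change with the strength of the Neurod1 signal, the peaks were divided into quintiles by fold, with limits at 2.82, 3.28, 3.81 and 4.83. The share with H3K27ac rose from 416 of 932 peaks (44.6%) in the lowest quintile to 802 of 932 (86.1%) in the highest, or by 41.4 percentage points (p = 5.60e-82 by a two-sided Fisher's exact test with Benjamini-Hochberg adjustment over H3K27ac, H3K4me1, H3K4me3 and Otx2). The shares in between were 52.4%, 61.2% and 73.7%, so the share was higher at each step between quintiles. By decile it was not higher at each step, at 52.4% in the second and 51.1% in the third. For H3K4me1 the share rose from 53.6% to 94.4%, by 40.8 points (adjusted p = 5.89e-98, Fisher's exact test). Nearly every strong Neurod1 peak thus lay within a region carrying H3K4me1. Otx2 overlapped 51.5% of the lowest quintile and 87.1% of the highest, 35.6 points more (adjusted p = 7.73e-65, Fisher's exact test). Among peaks with a −log10 q-value of at least 5, the Otx2 shares were closer, at 69.8% and 90.9%, and so were those of H3K27ac, at 62.0% and 88.4%. The Otx2 share over all peaks did not climb at each step, since the second quintile was at 45.5%. The tests take peaks as their units, so the p-values describe these lists and not the variation between animals.

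H3K4me3 went the other way. It was found at 23.9% of the lowest quintile, with a 95% Wilson interval from 21.3% to 26.8%, and at 13.1% of the highest, from 11.1% to 15.4% (difference −10.8 points, adjusted p = 1.99e-09, Fisher's exact test). This call was lost with quintiles by −log10 q-value, where the difference was −1.82 points (adjusted p = 0.326, Fisher's exact test). With quintiles by fragments at the summit the order turned, with H3K4me3 at 9.66% of the lowest and 18.9% of the highest. As a result of the changes along the fold, 74.9% of the highest fold quintile were active enhancer peaks against 32.3% of the lowest. Unmarked peaks made up 33.0% of the lowest quintile and 2.47% of the highest, or 24.2% and 2.31% without the peaks of high IgG background. Poised enhancer peaks were most frequent in the middle, at 18.6%, 17.1% and 16.8% of the 3 middle quintiles against 10.7% and 9.55% at the ends.

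**Figure D2:**
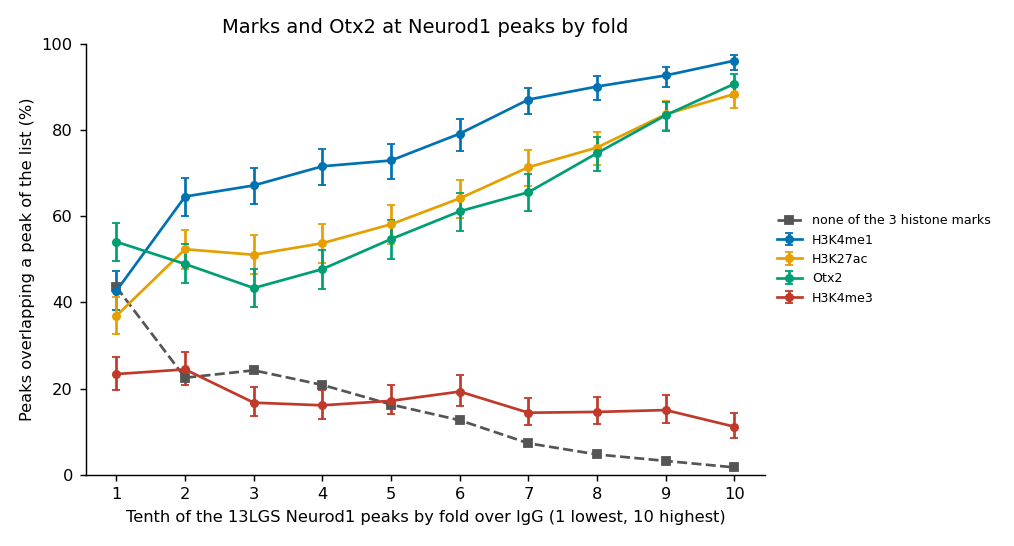
Share of 13LGS Neurod1 peaks (vertical, %) that overlapped an H3K4me1, H3K27ac, Otx2 or H3K4me3 peak, by decile of fold over IgG (horizontal, 465 or 466 peaks each), with 95% Wilson intervals as bars, which cover counting error only, and the unmarked share as a dashed line. H3K27ac goes from 36.9% in the lowest decile to 88.4% in the highest and H3K4me1 from 42.7% to 96.1%, while the unmarked share goes from 43.6% to 1.72%, or from 25.1% to 1.76% without peaks of an IgG background above 50.

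Width and IgG background also changed along the fold. The median width was 241.5 bp in the lowest quintile and 595 bp in the highest, and a wider peak has more room to meet a mark. With the 1 bp overlap replaced by the requirement that the Neurod1 summit lie inside the peak of the mark, which does not depend on the width of the Neurod1 peak, the H3K27ac shares were 40.8% and 79.9% and the H3K4me1 shares 50.1% and 91.2%. The width of the overlapping H3K27ac peaks also differed, with a median of 1446 bp in the lowest quintile and 2072 bp in the highest, and the part of width in the increase was not tested. The lowest quintile held 113 of the 114 peaks with an IgG background above 50. Without these 114 peaks, the lowest quintile had 50.5% with H3K27ac and 61.5% with H3K4me1, against 86.4% and 94.6% in the highest. The 100 peaks of highest fold, all at 10.1-fold or more, included 98 with H3K27ac, 99 with H3K4me1, 94 with Otx2 and 11 with H3K4me3.

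The strength of the marks themselves was compared along the same quintiles, by the fold over IgG of the strongest overlapping peak. Neurod1 and mark folds are both ratios to 13LGS IgG. The median IgG background at Neurod1 peaks was 10.2 in the lowest quintile and 7.13 in the highest. A wide Neurod1 peak can also overlap more peaks of a mark, from which the strongest is taken. The part of both in the differences below was not tested. At Neurod1 peaks with H3K27ac, the median H3K27ac fold was 4.26 in the lowest quintile and 5.07 in the highest, where the whole H3K27ac list had 3.18. The H3K27ac regions under the strongest Neurod1 peaks were broad, with a median of 2072 bp against 455 bp in the whole list. For Otx2 the median fold was 3.35 in the lowest Neurod1 quintile and 4.37 in the highest, against 3.15 in the whole Otx2 list. H3K4me1 differed little, at 6.53 and 7.03, but lay above its list median of 3.96 throughout. H3K4me3 had the reverse order. Its median fold was 18.2 at the weakest Neurod1 peaks and 7.34 at the strongest, with 12.6 in the whole H3K4me3 list, so the few strong Neurod1 peaks classed as promoters mostly lay on H3K4me3 peaks below that median. In that quintile the Neurod1 summit was inside the H3K4me3 peak at 77.0% of the overlaps, against 96.0% in the lowest.

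Seen from the marks, a small part of the marked regions held a called Neurod1 peak, and more of the strong H3K27ac and Otx2 peaks did. No called Neurod1 peak had fewer than 15 fragments at its summit, so weaker binding is not counted in these shares. Of 93999 H3K27ac peaks, 2868 (3.05%) held a Neurod1 peak. By quintile of H3K27ac fold the share was 1.29%, 1.18%, 1.52%, 2.73% and 8.53%, so most of it lay in the highest quintile. H3K27ac peaks with Neurod1 had a median width of 1456 bp and those without it 445 bp, and a wide region has more room for a peak. Of the 27993 Otx2 peaks, 2889 (10.3%) held Neurod1, from 6.68% in the lowest quintile of Otx2 fold to 19.6% in the highest. Among 18020 H3K4me3 peaks the share was 4.35%, and by quintile 4.91%, 3.00%, 4.08%, 4.38% and 5.38% from the lowest to the highest quintile of H3K4me3 fold. These shares were not tested.

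Summit positions separate Otx2 from the histone marks. At the 2909 Neurod1 peaks that overlapped Otx2, the distance to the nearest Otx2 summit had a median of 67 bp and was at most 50 bp at 40.7% of them. The nearest summit was taken from the whole list, so it can belong to a neighbour of the overlapping peak. Taken in the same way at peaks overlapping each mark, the median distance to the nearest summit was 235.5 bp for H3K27ac, 250 bp for H3K4me3 and 290 bp for H3K4me1. For H3K27ac the nearest summit was within 50 bp at 16.3% of the peaks. The overlapping Otx2 peaks were narrower, with a median width of 592 bp against 1559.5 bp for H3K27ac, which limits how far apart the summits can be. The distance to Otx2 was also shorter at strong Neurod1 peaks. In the lowest fold quintile its median was 83.5 bp and 33.5% were within 50 bp, and in the highest quintile the median was 49 bp and 50.7% were within 50 bp. For H3K27ac the median went the other way, with 186 bp and 280 bp in the same quintiles. Its share within 50 bp was similar, at 16.1% and 17.1%. The overlapping H3K27ac peaks were also wider in the highest quintile, with a median of 2072 bp against 1446 bp in the lowest.

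**Figure D3:**
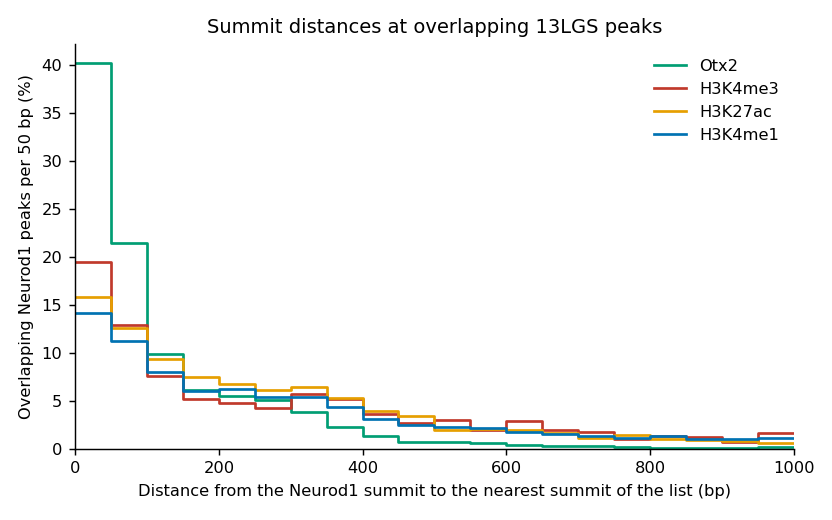
Distance from the Neurod1 summit to the nearest summit of the other 13LGS list (horizontal, bp) as a share of the Neurod1 peaks that overlap a peak of that list, per 50 bp (vertical, %), for Otx2 (2909 peaks), H3K4me3 (803), H3K27ac (2962) and H3K4me1 (3560). The Otx2 curve is concentrated at short distances, with a median of 67 bp, whereas the histone marks have medians of 235.5 to 290 bp.

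The Neurod1 list was then set against the Otx2 list of the same tissue by histone class. Promoter peaks were 17.2% of Neurod1 and 45.4% of Otx2 peaks, which is −28.2 points (adjusted p = 4.51e-314, two-sided Fisher's exact test with Benjamini-Hochberg adjustment over 4 classes). Active enhancer peaks were 52.5% of Neurod1 and 32.5% of Otx2 peaks (adjusted p = 2.44e-147, Fisher's exact test). The Neurod1 list thus held fewer promoter peaks and more active enhancer peaks, as a share, than the Otx2 list. The unmarked share was higher for Neurod1, 15.7% against 6.67% (adjusted p = 1.07e-82, Fisher's exact test), and was 13.8% without the Neurod1 peaks of high IgG background. With a −log10 q-value of at least 5 in both lists the unmarked shares were 6.16% and 3.65%. For poised enhancers, the shares of 14.5% and 15.4% did not pass the test of a difference (adjusted p = 0.140, Fisher's exact test). The sign of this last comparison depended on the setting. With only as many Otx2 peaks of highest fold as there are Neurod1 peaks, the poised share was 5.17 points higher for Neurod1 (adjusted p = 1.44e-14, Fisher's exact test). The lists share regions, so they are not independent, and the Otx2 list pools more libraries and a pair of antibodies. Here too the units were peaks, so the p-values carry no spread between animals.

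Between species, the 13LGS list had the larger share of active enhancer peaks and the mouse list the larger shares of poised enhancer and promoter peaks. Active enhancer peaks were 52.5% in 13LGS and 40.1% in mouse, 12.4 points more (adjusted p = 2.45e-33, two-sided Fisher's exact test with Benjamini-Hochberg adjustment over 4 classes). Poised enhancer peaks were 14.5% and 28.7%, 14.2 points fewer in 13LGS (adjusted p = 7.89e-63, Fisher's exact test). Promoter peaks were 17.2% and 25.6% (adjusted p = 4.29e-23, Fisher's exact test). Unmarked peaks were more frequent in 13LGS, 15.7% against 5.54% (adjusted p = 2.38e-59, Fisher's exact test), and 13.8% without the 13LGS peaks of high IgG background. With a −log10 q-value of at least 5, the unmarked shares were 6.16% and 3.20% and the active enhancer shares 64.5% and 44.5%. With an overlap of at least 250 bp, the active enhancer shares were 36.1% and 30.6%, a difference of 5.44 points. The 13LGS histone lists hold more peaks than the mouse lists. With equal numbers of histone peaks the active enhancer difference was 8.79 points (adjusted p = 9.80e-18, Fisher's exact test) and the poised enhancer difference −7.82 points (adjusted p = 2.34e-18, Fisher's exact test). Species, postnatal day, number of histone libraries and genome assembly go together in this comparison and cannot be told apart. Peaks were the units of these tests, so the p-values describe the lists and carry no spread between animals or libraries. Neighbouring peaks can also lie in the same broad histone peak, so the units are not independent.

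Neurod1 peaks were widely spaced, with some in tight groups. The gap from a peak to its nearest neighbour had a median of 53299 bp, with quartiles of 10055 and 198941 bp, and 46 peaks were alone on their sequence. A neighbour lay within 1 kb of 274 peaks (5.88%) and within 10 kb of 1147 (24.6%). Without the peaks of high IgG background, the median gap was 55571 bp and 23.9% had a neighbour within 10 kb. The longer Otx2 list had a median gap of 11474 bp, but when cut to the same number of peaks by highest fold its median was 113488 bp and 9.75% of peaks had a neighbour within 10 kb. The mouse Neurod1 list was close to the 13LGS one, at 43549 bp and 27.1%. Within the 13LGS list, the strongest quintile by fold was the most closely spaced. Its median gap to any other Neurod1 peak was 31401 bp, against 49773 to 68076 bp in the other 4 quintiles. It stayed so, with 31237 bp against 54182 to 72069 bp, when quintiles were formed without the peaks of high IgG background. Those peaks still counted as neighbours.

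Chaining peaks no more than 10 kb apart gave 491 clusters of 2 or more peaks, of which 386 were pairs and 14 held at least 5 peaks. Both of the largest lay in regions of high IgG background. The largest, with 10 peaks at Itri12:73892902-73911905, had folds of 1.27 to 1.83 over IgG backgrounds of 143 to 795, and 9 of its peaks were unmarked. The next, 9 peaks on the small scaffold Itri81, had folds of 1.37 to 1.62. The largest cluster at a low background held 7 peaks over 30.5 kb at Itri7:6618537-6649049, with folds of 2.76 to 9.71. All 7 overlapped H3K4me1, 6 overlapped H3K27ac and 5 overlapped Otx2. Over the whole Neurod1 list the shares were 76.4% for H3K4me1, 63.6% for H3K27ac and 62.5% for Otx2. A cluster of 6 peaks at Itri16:27037347-27069435 reached 10.7-fold, and all 6 carried both H3K27ac and H3K4me1. Another cluster of 6 peaks lay further along the same sequence, at Itri16:27153492-27186819, where all peaks carried H3K4me1 and 3 carried H3K27ac.

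The shares with enhancer marks were higher in clusters than among single peaks. Leaving out peaks with an IgG background above 50, the 1087 peaks in clusters had H3K27ac at 77.6% and H3K4me1 at 90.1%, where the 3457 single peaks had 61.2% and 74.6%. H3K4me3 was at 16.1% and 18.1%, and Otx2 at 66.4% and 61.7%. The median folds were close, 3.65 in clusters and 3.52 for single peaks, whereas the median widths were 366 and 295 bp. Neighbouring peaks can lie in the same broad histone peak, so these shares are given without a test.

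Of the 4658 peaks, 4567 lay on the 19 long sequences of the assembly, those with at least 1000 H3K4me1 peaks. The other 91 lay on 55 small scaffolds, where 76 (83.5%) were unmarked, or 33 of 45 (73.3%) without those of high IgG background. Across the long sequences the density of Neurod1 peaks had a median of 1.72 per Mb. Itri16 had the highest density, 3.34 per Mb, followed by Itri11 with 2.93 per Mb. Itri10 had the lowest by a wide margin, 33 peaks over 121 Mb or 0.273 per Mb, and Itri15 followed with 0.854 per Mb.

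**Figure D4:**
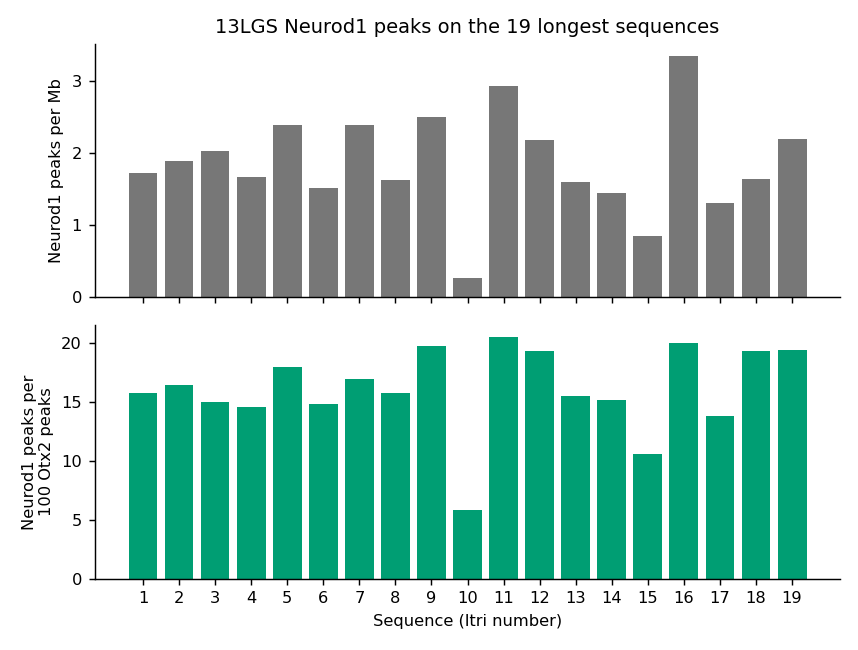
Neurod1 peaks per Mb (upper bars) and Neurod1 peaks per 100 Otx2 peaks (lower bars) on each of the 19 long 13LGS sequences, in order of their number. Itri10 is lowest in both, at 0.273 per Mb and 5.80 per 100 Otx2 peaks, and Itri16 has the highest density, 3.34 per Mb.

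Part of this unevenness was shared with the other lists. Itri10 held 0.708% of the Neurod1 peaks, with a 95% Wilson interval from 0.505% to 0.993%, and 1.14% of the H3K27ac peaks, 2.03% of the Otx2 peaks, 2.43% of the H3K4me1 peaks and 3.45% of the H3K4me3 peaks. Neurod1 was therefore low on Itri10 relative to each other list, and the interval for Neurod1 did not reach any of these shares. The ratio of Neurod1 to Otx2 peaks was 5.80 per 100 on Itri10 and 10.6 on Itri15, and between 13.8 and 20.5 on the other 17 sequences. The IgG background at Neurod1 peaks was also lowest on Itri10, with a median of 5.19 scaled fragments against 6.48 to 7.79 on the others. The part of coverage in the low count was not tested. The 33 peaks that were called there had a median fold of 3.72, in the range of the other sequences, where medians ran from 3.25 to 3.72. Of these 33 peaks, 20 (60.6%) overlapped Otx2, close to the 62.5% of the whole list.

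The 10 peaks of highest fold all overlapped both Otx2 and H3K4me1, and 8 were active enhancer peaks and 2 promoter peaks. The highest, at Itri1:53804451-53805311, had a fold of 37.1 from 254 fragments, with a 95% exact Poisson interval from 224 to 287, over an IgG background of 5.87. Its summit was 17 bp from that of an Otx2 peak of 9.79-fold, and its H3K27ac peak had a fold of 3.86. The next, at Itri5:170247416-170248352, had a fold of 25.4 from 238 fragments, with the Otx2 summit 9 bp away. The one after it, at Itri1:52994659-52995774, had a fold of 21.5, with a much stronger H3K27ac peak of 12.2-fold. A strong Neurod1 signal thus came with H3K27ac of quite different strength. At Itri14:6466638-6466979, only 342 bp wide, Neurod1 had a fold of 20.2 and Otx2 one of 20.3 with summits 2 bp apart, while the H3K27ac peak was weak at 2.17-fold and 223 bp wide. At Itri7:35890499-35891258, Neurod1 at 19.5-fold and Otx2 at 22.0-fold lay within an H3K27ac peak of 6522 bp. The genes next to these peaks are not named, since no annotation of this assembly was used here.

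The study listed accessible elements of *Rxrg*, *Thrb*, and *Mef2c* in 13LGS, and Neurod1 peaks were sought across the span of each gene's elements. *Rxrg* and *Thrb* encode the nuclear receptors retinoid X receptor gamma and thyroid hormone receptor beta, both known for their part in cone opsin expression, and *Mef2c* encodes a MADS-box transcription factor. Across the 896 kb of the *Rxrg* elements on Itri9 there were 10 Neurod1 peaks, with folds of 2.29 to 9.69 and a median of 3.69. All 10 overlapped H3K4me1, 7 overlapped H3K27ac and 8 overlapped Otx2, where the shares over all 4658 Neurod1 peaks were 76.4%, 63.6% and 62.5%. Of the 10 peaks, 6 lay on listed elements.

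The strongest *Rxrg* peak, at Itri9:101847574-101848497, at −94.8 kb from the middle of the listed start-site elements, had a fold of 9.69 from 71 fragments, with a 95% Poisson interval from 55.5 to 89.6, and ranked 116 among the 4658 peaks. The peak at Itri9:101889375-101890201 had a fold of 7.49 and ranked 258. Only 257 bp away, the peak at Itri9:101890459-101892039 had a fold of 3.71 under the same H3K27ac peak of 4550 bp. Both strong peaks were active enhancer peaks with Otx2. The peak at the start site, Itri9:101943005-101943323, was a promoter peak and weak, with a fold of 2.41 from 28 fragments, a Poisson interval from 18.6 to 40.5, and a rank of 4345. Among the 4 peaks off the listed elements, those starting at 101535534 and 101540153 had folds of 4.17 and 4.22 and were both active enhancer peaks.

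At *Thrb* the picture was a single strong peak. Itri2:182651754-182652307 was the only Neurod1 peak across the 509 kb of the *Thrb* elements and had a fold of 10.8, from 57 fragments with a 95% Poisson interval from 43.2 to 73.9. It ranked 80 in the list and overlapped 2 of the 55 listed elements. Its IgG background, 4.38, was at the lowest value of the list. The Neurod1 summit lay at −196 kb from the middle of the listed start-site elements, which is not itself a promoter position. On the same scale, the H3K4me3 summits of the span lay at −176, −173, 150 and 151 kb. The Otx2 summit was 64 bp from the Neurod1 summit, and the overlapping H3K4me1 peak had a fold of 11.2. No Neurod1 peak lay across the 263 kb of the 5 *Mef2c* elements. No called peak in the list had fewer than 15 fragments at its summit, so weaker binding there was not detectable at this depth. For scale, Neurod1 peaks numbered 1.72 per Mb on Itri1, which holds the *Mef2c* elements, 1.88 on Itri2 and 2.50 on Itri9. At such densities, no peak over 263 kb or a single one over 509 kb is not read as particular to these genes.

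**Figure D5:**
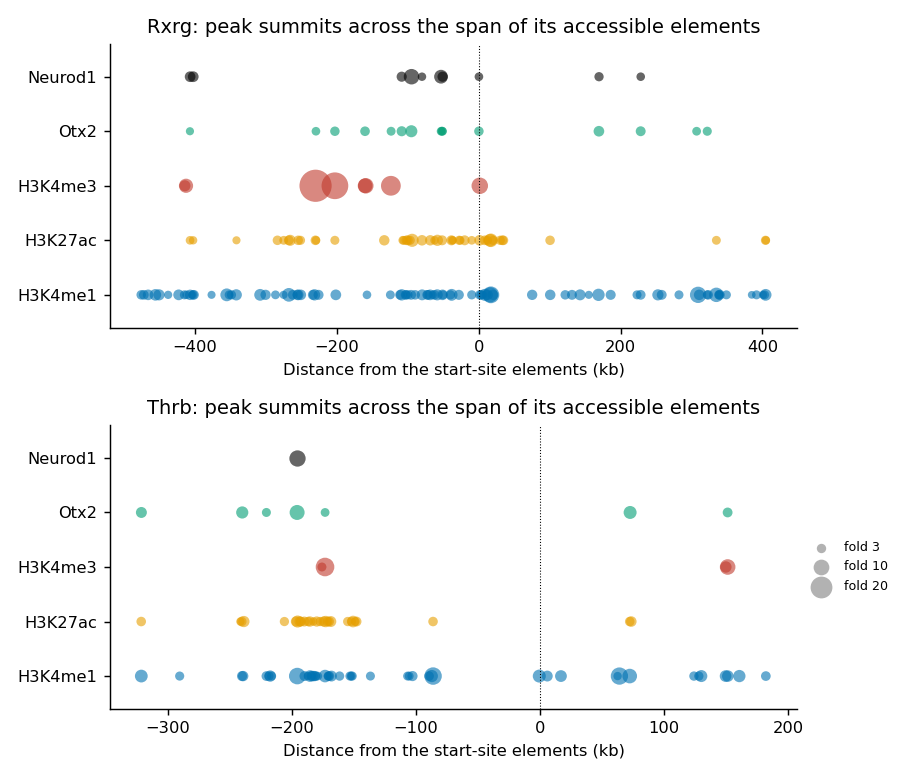
Summits of 13LGS peaks for 5 targets across the spans of the listed elements of *Rxrg* (upper) and *Thrb* (lower), placed by distance from the middle of the start-site elements (horizontal, kb), with the area of each point growing with fold over IgG. *Rxrg* has 10 Neurod1 peaks, the strongest of 9.69-fold, and *Thrb* has a single one of 10.8-fold.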

How the data were processed

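The authors trimmed reads (cutadapt 3.5, Trim Galore 0.6.4), aligned them with Bowtie2 to HiC_Itri_2 or GRCm38, kept well-mapped reads (SAMtools 1.12), removed duplicates, and merged technical replicates. Peaks were called by macs2 (q-value of 0.05) for each target over IgG with all of its libraries together. The deposited fold is a ratio to IgG. The −log10 p and −log10 q-values and the score, a whole number made from the q-value, are as deposited by the authors. Because each list pools its libraries, there is no spread between replicates, and library depth is unknown beyond the fragments recovered at summits.

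Overlaps were counted in Python 3.11.15 (numpy 2.4.6, pandas 2.3.3, matplotlib 3.10.9). On simulated intervals the counts had 0 differences from bedtools 2.31.1. Fisher's exact tests, Wilson and Poisson intervals, which cover counting error only, came from scipy 1.17.1. Fragments at the summit and IgG background were solved from the deposited fold, taken as the ratio of both plus 1, and the Poisson p-value. On simulated peaks 100% were recovered, but the simulated folds and IgG backgrounds did not span the full range of the list. The peaks with the highest backgrounds and with the highest and lowest folds were therefore not covered by this check.

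The single peaks named are the 10 of highest fold, those on elements of *Mef2c*, *Rxrg*, and *Thrb*, whose positions came from a supplement of the study, and the clusters with the most peaks. The other clusters and *Rxrg* peaks named, and the limit on IgG background, were chosen after their values were seen. The members and lists were chosen with earlier results of these data known. The 13LGS genome and its annotation were not used here, so the planned motif counts and marker gene lists were not run.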

Additional observations from a re-analysis of the deposited data

How the results depend on the processing

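Of 100 alternative values for 16 results, 91 kept their direction and side of the threshold or stayed within the limit for a value without a test. The alternatives were an overlap of at least 250 bp, the summit inside the other peak, a −log10 q-value of at least 5, long sequences only, merging within 500 bp, quintiles by −log10 q-value, deciles, equal numbers of peaks, peaks without the other factor and, chosen after seeing the data, leaving out peaks with an IgG background above 50. The overlap of 250 bp cannot be met by the 53.5% of the lowest quintile, and 6.76% of the highest, that are narrower, so differences between quintiles under it depend on peak width by construction. Apart from it, the difference between the highest and lowest quintile ranged from 26.4 to 51.5 points for H3K27ac, from 26.7 to 53.4 for H3K4me1 and from 21.1 to 47.5 for Otx2, and with it the values were 55.6, 59.9 and 52.3. Across all alternatives, the poised enhancer difference between 13LGS and mouse ranged from −15.8 to −7.82 points, the unmarked difference between Neurod1 and Otx2 from 2.51 to 27.4 points, and that between 13LGS and mouse from 2.95 to 17.0 points. The H3K4me3 difference between quintiles lost its call with an overlap of 250 bp (−0.107 points) and with quintiles by −log10 q-value (−1.82 points). The poised enhancer difference between Neurod1 and Otx2 changed sign with the summit inside the peak (0.132 points), with a −log10 q-value of at least 5 (0.623), with equal numbers of peaks (5.17) and without the other factor (2.49), and passed the threshold with merged peaks at −1.22 points. The cause was not tested. The median fold of unmarked peaks with Otx2 minus that without it changed from −0.29 to 0.15 without peaks of high IgG background. The median gap was 94705 bp with a −log10 q-value of at least 5, which leaves fewer peaks. No paired analysis was possible because each list pools the numbered replicates, and for the same reason no replicate could be left out.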

Other observations

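Fold and fragment number order the Neurod1 peaks differently. When the peaks were divided into quintiles by fragments at the summit, the share with H3K27ac was 40.2%, 61.8%, 72.6%, 73.1% and 70.2% from the lowest to the highest, and the share with H3K4me1 was 58.2%, 81.6%, 85.1%, 83.5% and 73.8%. The share with H3K4me3 was 9.66%, 16.3%, 21.0%, 20.3% and 18.9% in the same order, so its fall along the fold was not seen along fragments. The highest fragment quintile held all 114 peaks with an IgG background above 50, and 18.5% of it was unmarked. Its other 818 peaks had H3K27ac at 79.7% and H3K4me1 at 83.9%, and 7.95% were unmarked. Otx2 overlapped 31.8% of the lowest fragment quintile and 80.4% of the highest.

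Of the 803 promoter peaks, 380 carried all 3 marks and had a median fold of 3.71, and the 164 with H3K4me3 alone had a median fold of 3.06. The cluster of 6 Neurod1 peaks at Itri5:86451030-86472551 had H3K4me3 at 5 of its peaks and Otx2 at all 6, with folds of 2.15 to 5.85. Over the whole list H3K4me3 was at 17.2% and Otx2 at 62.5%.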
